A study of Caenorhabditis elegans with 2 samples.

Results

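The genes examined here encode 8 subunits of the anaphase-promoting complex and its 2 activators: mat-2, emb-30, apc-2, apc-11, apc-10, mat-1, emb-27, mat-3, fzy-1 and fzr-1. They were listed by name, with earlier results of these data known. All 10 were found among the 19973 protein-coding genes that the Ensembl release 115 annotation (WBcel235, the same assembly as ce11) places on the nuclear chromosomes. Chromatin immunoprecipitation and sequencing (ChIP-seq) had been done with an anti-GFP antibody on whole Caenorhabditis elegans of strain RW12237, whose allele st12237[madf-6::TY1::EGFP::3xFLAG] is a CRISPR insertion that adds EGFP and short epitope tags to MADF-6, which carries a MADF-type DNA-binding domain, at its own locus. The animals were young adults, 63 h old, grown from larvae starved at the L1 stage after bleaching. There was 1 group with 2 biological replicates and no second condition, without an untagged strain among the samples used here. Binding of the tagged protein and unspecific recovery of a locus therefore cannot be told apart. Read depth is unknown, because the files hold peaks and no counts. Whole animals were used, so no peak can be assigned to a tissue.

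The anaphase-promoting complex, or cyclosome, is a ubiquitin ligase that marks securin and B-type cyclins for destruction by the proteasome, so that separase is freed, sister chromatids part and the cell leaves mitosis or meiosis. Scaffold subunits hold together a catalytic pair (a cullin-like protein and a RING protein) and an arm of tetratricopeptide repeat (TPR) proteins, which binds the activators Cdc20 and Cdh1. The spindle checkpoint holds Cdc20 inactive until kinetochores are attached. In C. elegans, loss of mat and emb genes of the complex stops fertilised oocytes at metaphase of the first meiotic division, which gave the mat genes their name (metaphase-to-anaphase transition).

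MADF-6 peaks were found near most of these genes, but nearly all of them were weak. A gene was called when the summit of a peak, the position of its highest enrichment, lay within 1000 bp of the annotated 5′ end of the gene. In the conservative list, which combines both replicates and keeps 4384 peaks with a reproducibility score of at least 830 (on a scale capped at 1000), 6 of the 10 genes were called: emb-27, emb-30, mat-1, apc-2, fzy-1 and fzr-1. The same rule called 15.8% of all protein-coding genes. Among these genes fzy-1 alone had a peak above the median signal of the list, 149, where signal is the authors' own enrichment value for a peak and serves only to rank peaks within a list. The other called members had signals from 89.3 to 123. With the 2192 peaks of highest signal, 1 of 10 genes was called, against 10.3% of all genes. These counts carry no test.

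The replicates' own lists called fewer of them. Replicate 1's thresholded list called 3 of 10 (11.4% of all genes) and replicate 2's called 4 of 10 (16.5%). The genes called in both were emb-27, emb-30 and fzy-1, which is 3 of 10 against 10.7% of all genes. The less strict combined list called the same 6 genes as the conservative list (17.3% of all genes). In the ranked lists, which hold all calls before thresholding, summits of any strength were common over all protein-coding genes. In the combined ranked list 9 of 10 members had a summit within 1000 bp (51.4% of all genes). All 10 had one in replicate 1's ranked list (56.1%) and replicate 2's (54.2%).

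**Figure D1:**
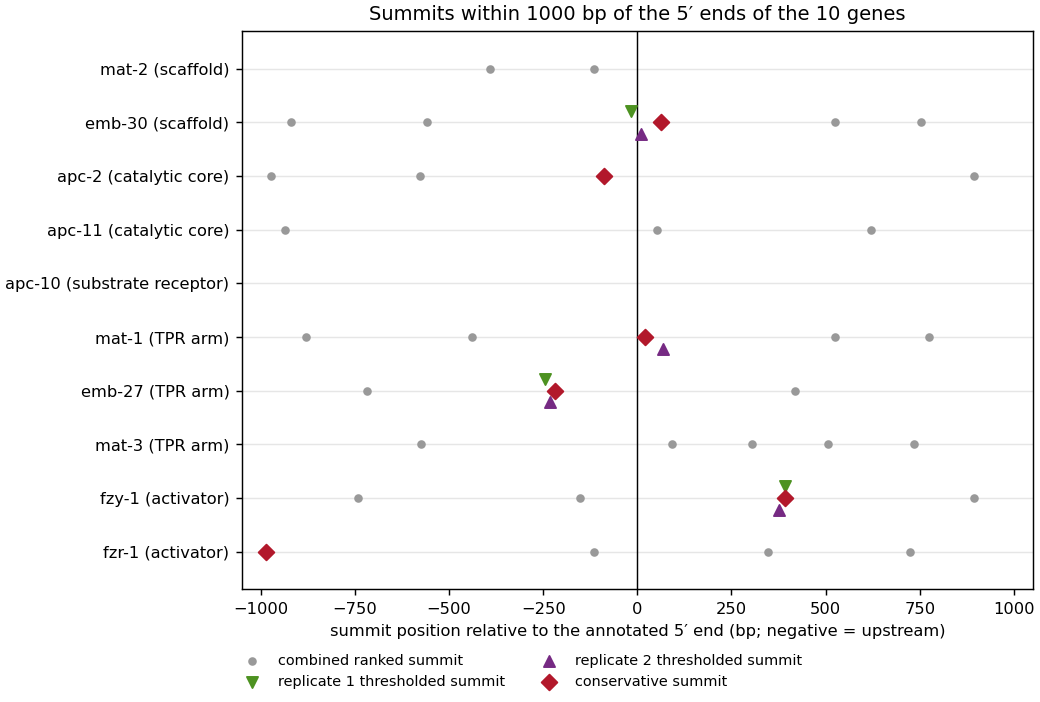
Position of each summit (horizontal axis, bp from the annotated 5′ end, negative upstream) at the 10 genes (rows, with their role). Red diamonds are conservative summits, triangles thresholded summits of each replicate, and grey dots summits of the combined ranked list. A replicate's thresholded summit stands beside the conservative one at emb-30, mat-1, emb-27 and fzy-1, and the conservative summit at fzr-1 lies at the edge of the window.

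Of the scaffold genes, emb-30 was called and mat-2 was not. The emb-30 gene (WBGene00001284; chromosome III, 9435507 to 9441460, minus strand) encodes the homologue of subunit Apc4. Its conservative summit, at 9441397, lay 63 bp inside the gene in coding sequence, with a signal of 98.8 (rank 3185 of 4384). Replicate 1 placed it 16 bp upstream of the 5′ end with a signal of 42.1, and replicate 2 placed it 9 bp inside with a signal of 59.9, both at the top score of 1000. This was one of the peaks on which the lists of both replicates and the combined list concurred, although its summits were spread over 79 bp. The next gene, pir-2, lies 96 bp upstream on the same strand, so emb-30 has little sequence of its own before its start. The other gene whose 5′ end is nearest to the summit is F54C8.1, 1698 bp away.

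The mat-2 gene (WBGene00003133; chromosome II, 11112719 to 11120805, plus strand), which encodes the homologue of the largest scaffold subunit, Apc1, had weak summits in each ranked list and none in a thresholded one. Its strongest summit within 1000 bp had a signal of 28.4 in the combined ranked list (392 bp upstream, rank 30935 of 63808). It was 7.3 in replicate 1 (699 bp inside) and 12.1 in replicate 2 (55 bp inside), so the lists did not place a summit at the same position. The nearest conservative summit to mat-2 was 4320 bp upstream, at apc-17.

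The catalytic genes differed in the same way. The apc-2 gene (WBGene00000143; chromosome III, 8080629 to 8083701, plus strand) encodes the cullin-like subunit. Its conservative summit, at 8080541, lay 88 bp upstream, in the sequence between apc-2 and the Dicer gene dcr-1, with a signal of 98.2 (rank 3202) and a score of 1000. Neither replicate's thresholded list held it, since its own scores were 783 in replicate 1 (signal 41.3, rank 2804 of 57453) and 326 in replicate 2 (signal 56.4, rank 4345 of 65847). Both replicates nevertheless had a ranked summit there, 28 bp and 0 bp from the combined position. The peak at apc-2 thus passed the threshold in the combined list and in neither replicate's own.

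The apc-11 gene (WBGene00000145; chromosome III, 4593863 to 4594424, minus strand) encodes the RING subunit and was not called. Its strongest summit in the combined ranked list was 53 bp inside the gene, with a signal of 67.6 and a score of only 79. Replicate 2 had a signal of 56.3 there (28 bp inside, score 333), and replicate 1 had a weaker one of 10 (43 bp inside, score 133). Replicate 1's strongest summit, 24.3, lay elsewhere, 705 bp downstream of the 5′ end. That is beyond the 3′ end of the gene, which is 562 bp long. A conservative summit with a signal of 98.1 lay just outside the window, 1166 bp from the 5′ end and beyond the 3′ end of this short gene, where erh-2 begins on the other strand. Just inside the window, at 986 bp, was the summit at fzr-1 described below.

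The apc-10 gene (WBGene00000144, chromosome V, 10425362 to 10426353, minus strand) encodes the subunit that helps to bind substrates. It was the only member without a summit within 1000 bp in the combined ranked list used here, of 63808 peaks. The replicates had weak ones, at 802 bp with a signal of 8.9 in replicate 1 and at 861 bp with a signal of 26.7 in replicate 2, neither with a score above 242. The nearest conservative summit was 60676 bp away, farther than for any other member.

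Of the TPR arm, mat-1 and emb-27 were called and mat-3 was not. The mat-1 gene (WBGene00003132; chromosome I, 5123915 to 5127201, minus strand) encodes the homologue of Cdc27. Its conservative summit, at 5127182, was the closest to a 5′ end among the 10 members, 19 bp inside in coding sequence, and had the lowest signal of the called members, 89.3 (rank 3485), with a score of 841. Replicate 2 held it at 69 bp with a signal of 64.4 and a score of 960. Replicate 1 had a ranked summit 12 bp away with a signal of 25.4, but a score of 79 kept it out of the thresholded list. Of the replicates' thresholded lists, replicate 2's alone held the peak at mat-1.

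The emb-27 gene (WBGene00001281; chromosome II, 8159865 to 8162170, minus strand) encodes the homologue of Cdc16. Its conservative peak was the narrowest of the members, 86 bp wide against a median of 320, with the summit at 8162388, 218 bp upstream, a signal of 123 and rank 2594. The summit lay 244 bp upstream in replicate 1 (signal 47.6) and 233 bp upstream in replicate 2 (signal 79.6), both with a score of 1000. All lists thus placed it in the 294 bp between emb-27 and rrf-3, an RNA-dependent RNA polymerase gene of the small RNA pathways, whose 5′ end was nearer to the summit (77 bp) than that of emb-27.

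The mat-3 gene (WBGene00003134; chromosome III, 475454 to 482325, plus strand) encodes the homologue of Cdc23. Its strongest combined ranked summit was 575 bp upstream, with a signal of 48.1 and a score of 219, and a second stood 93 bp inside with a signal of 45.7. Summits near both positions recurred in the replicates, with signals of 24.5 and 24.2 in replicate 1 and of 27 and 24 in replicate 2. The low scores kept them out of every thresholded list. A conservative peak with a signal of 212 (rank 1500) lay 118 bp upstream of nemp-1, a nuclear envelope protein gene that ends 104 bp before mat-3 on the same strand, and its summit was 3255 bp from the 5′ end of mat-3.

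The activator gene fzy-1 (WBGene00001511; chromosome II, 5500770 to 5503912, plus strand), which encodes Cdc20, carried the strongest peak of the members. The signal was 395 (rank 702 of 4384), with 140.0 in replicate 1 (rank 596 of 2803) and 260.4 in replicate 2 (rank 736 of 4519), all at a score of 1000. The summits of the lists lay 391, 391 and 377 bp inside the annotated gene, so they fell within 14 bp of each other. The position, 5501161, is in an intron of the longer of the 2 annotated transcripts and 472 bp upstream of the start of the shorter, ZK177.6.1. It is also 97 bp upstream of F12A10.8, a gene on the other strand whose 5′ end overlaps the longer fzy-1 transcript. The peak therefore stands before the start of an fzy-1 transcript and of F12A10.8 at once.

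The other activator gene, fzr-1 (WBGene00001510; chromosome II, 9640156 to 9644466, minus strand), which encodes Cdh1, had a weak and distant peak. Its conservative summit, at 9645452, lay 986 bp upstream in intergenic sequence, with a signal of 93.4 (rank 3361) and a score of 890. Replicate 1 had a ranked summit 1 bp away with a signal of 34.1 and a score of 86. Replicate 2 had one 22 bp away, outside the 1000 bp window of the gene, with a signal of 45.6 and a score of 755. Neither replicate's thresholded list held this peak. No other protein-coding 5′ end was nearer, that of sqv-8 being 1526 bp away. Closer to fzr-1, both replicates and the combined ranked list had a summit at the same base, 114 bp upstream, with signals of 18.7, 36.5 and 45.9 and scores no higher than 441.

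Sequences of 101 bp centred on the conservative summits are shown for emb-27, apc-2 and fzy-1, and for 3 compared genes. The compared genes, described below, are other subunits, checkpoint genes, substrates, separase and kinases. The peaks of emb-27 and apc-2 lie between divergent genes, and fzy-1 has the strongest peak of the members. The genes cyb-3 and plk-1 were chosen as 2 of the 3 called compared genes whose windows hold GAGACC. The gene bub-3 has a strong peak without it. The sequences were read from the RefSeq genome (WBcel235), 5′ to 3′ on the strand of the named gene. Capitals mark matches on either strand to 6 words: the word TTTGAA and its variant TTCGAA (forms of the cell cycle homology region bound by LIN-54 of the DREAM complex), the word TTCGCGC and its variant TTCCCGC (forms of the E2F site), the repeat GAGAGA, and finally GAGACC, which was added after the sequences had been seen. The windows lie at chrII:8162338-8162438 (minus strand) for emb-27, chrIII:8080491-8080591 (plus) for apc-2, chrII:5501111-5501211 (plus) for fzy-1, chrV:15395486-15395586 (plus) for cyb-3, chrIII:8101091-8101191 (plus) for plk-1 and chrII:13725926-13726026 (plus) for bub-3.
emb-27: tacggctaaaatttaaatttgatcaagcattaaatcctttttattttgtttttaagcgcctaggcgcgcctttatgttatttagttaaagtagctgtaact
apc-2: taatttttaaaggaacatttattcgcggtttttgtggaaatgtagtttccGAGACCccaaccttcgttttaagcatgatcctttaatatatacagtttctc
fzy-1: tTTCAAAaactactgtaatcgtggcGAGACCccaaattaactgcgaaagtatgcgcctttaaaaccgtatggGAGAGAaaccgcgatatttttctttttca
cyb-3: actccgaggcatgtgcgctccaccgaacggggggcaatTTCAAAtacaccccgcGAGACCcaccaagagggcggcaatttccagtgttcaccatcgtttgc
plk-1: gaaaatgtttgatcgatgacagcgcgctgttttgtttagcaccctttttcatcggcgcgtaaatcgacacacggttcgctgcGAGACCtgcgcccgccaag
bub-3: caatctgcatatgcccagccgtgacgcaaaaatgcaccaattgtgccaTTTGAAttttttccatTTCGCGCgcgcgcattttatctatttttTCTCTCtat

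The windows of apc-2 and fzy-1 share an uninterrupted run of 11 letters, CGAGACCCCAA, the longest that any pair of the 6 called members shares on either strand. It was found in 3 of the 4384 conservative windows, these 2 included, and in 0 of 8768 windows of equal length centred 300 bp to each side of the summits. Its core GAGACC was in 2 of the 6 member windows and in 14.7% of all conservative windows. That share was 20.8% among the 2192 peaks of highest signal, 8.53% among the other 2192 and 3.38% in the flanking windows. Of the 15 called compared genes described below, 3 held it: such-1, cyb-3 and plk-1. The run and its core were picked because these sequences were seen, so their counts at the members are a description. The run was taken from 2 of the 3 windows that hold it. Whether a run of 11 letters is unusual among pairs of windows was not tested.

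Of the other words, TTTGAA was in the windows of emb-30 and fzy-1 (2 of 6, against 20.7% of all conservative windows) and GAGAGA in those of mat-1 and fzy-1 (2 of 6, against 10.8%). None of the 6 held TTCGAA (7.34% of all windows), the E2F form TTCGCGC (5.86%) or its variant TTCCCGC (5.95%). Of the 15 windows of the compared genes described below, 5 held TTTGAA, 4 TTCGAA, 2 TTCGCGC, 1 TTCCCGC and 2 GAGAGA. At emb-27 and fzr-1 none of these words was matched. The windows of the members ran from 30.7% G and C at emb-27 to 44.6% at mat-1, with a median of 43.6% over all conservative windows.

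The arrangement of the genes differed among the members. At 3 of the 6 called members, emb-27, apc-2 and mat-1, the next gene upstream was divergent and began within 627 bp, so the window also held another gene's start: rrf-3, dcr-1 and the splicing factor gene prp-31. At fzy-1 it held the start of F12A10.8. When each summit was given to its nearest 5′ end alone, emb-27 and fzy-1 passed to rrf-3 and F12A10.8, and 4 of 10 members remained (12.3% of all genes). The 4 genes emb-30, mat-3, apc-10 and apc-11 lie 96 to 216 bp behind a gene on the same strand, an arrangement that in this species can mark an operon, whose genes are transcribed from a start before the first of them. When the 5′ end of the first gene in such a same-strand run (gaps under 500 bp) was taken in place of the member's own, 6 of 10 were called (17.4% of all genes), with mat-3 gained through nemp-1 and emb-30 lost. Ranked summits near the start of the run had signals of at most 59.1 for apc-11 and 12.8 for emb-30, and there was none for apc-10. The annotation used does not say which runs are operons.

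**Figure D2:**
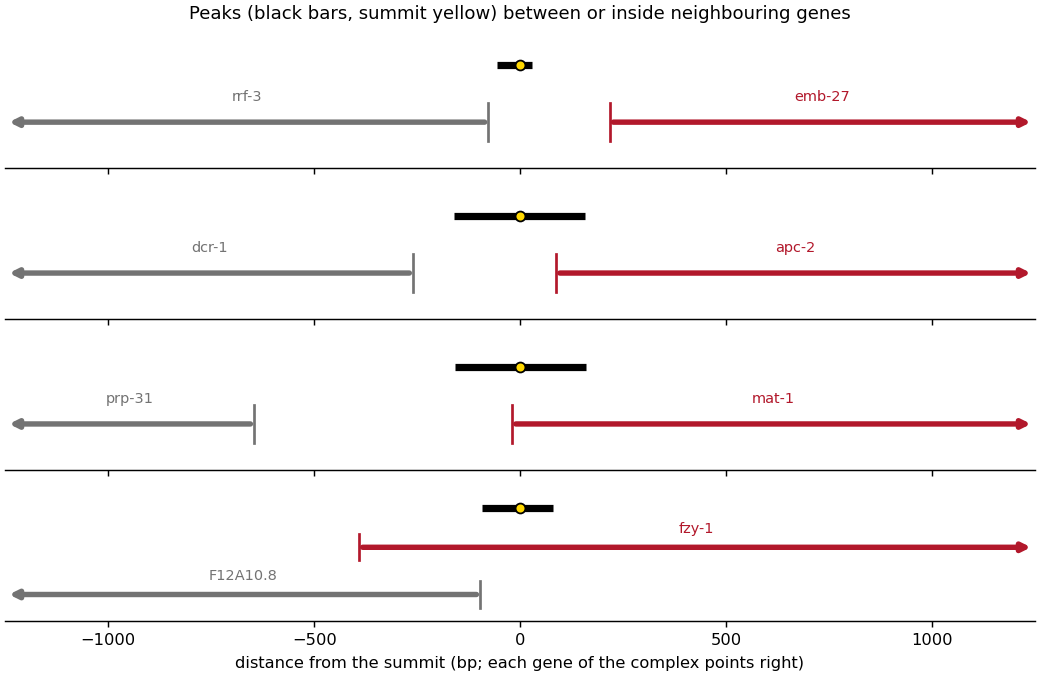
Conservative peaks (black bars) with their summits (yellow) and the neighbouring genes at emb-27, apc-2, mat-1 and fzy-1. The horizontal axis is distance from the summit in bp, upright ticks are annotated 5′ ends, arrows give the direction of transcription and are cut at the edge of the plot, and each gene of the complex is drawn pointing right. The summit at emb-27 is 77 bp from rrf-3, and that at fzy-1 is inside the gene and 97 bp from F12A10.8.

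The window set which members were counted. With summits within 250 bp, 4 of 10 were called (8.14% of all genes), with 500 bp 5 of 10 (12.3%) and with 2000 bp 7 of 10 (21.0%), where apc-11 was added. Counting any base of a peak (16.5% of all genes) or any annotated transcript start (16.6%) left the same 6 genes. Among genes with any combined ranked summit in the window, 6 of 9 members were called, against 30.8% of such genes.

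The substrates, the kinases and 3 of the checkpoint genes had higher signals than any gene of the complex and activators described so far, while the other subunits were mixed and the remaining checkpoint genes were weak or not called. A list of 18 genes held 5 other subunits, 5 checkpoint genes, 5 substrates, separase and 2 kinases, and 15 of the 18 were called in the conservative list, again against 15.8% of all genes. With the 2192 peaks of highest signal 13 of 18 were called, against 10.3%. Their called members had signals from 76.0 to 2368 with a median of 600.2, where the 6 called genes of the complex and its activators had a median of 98.5 and all 3158 called genes one of 205.9. Replicate 1's thresholded list called 12 of the 18 (11.4% of all genes) and replicate 2's 16 (16.5%). The difference between the lists was not tested.

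**Figure D3:**
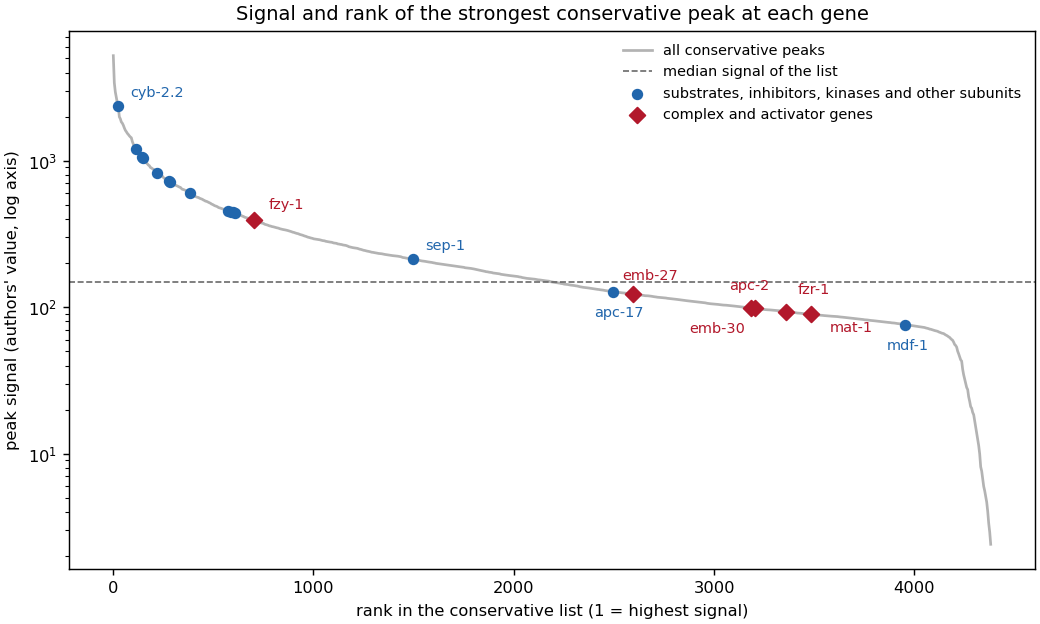
Signal (vertical axis, the authors' value, log scale) against rank (horizontal axis) in the conservative list. The grey line is the whole list, the dashed line its median signal of 149, red diamonds the 6 called genes of the complex and its activators, and blue circles the 15 called genes of the compared lists. Of the red diamonds, fzy-1 alone lies above the median, while 13 of the 15 blue circles do. Of all 3158 called protein-coding genes, which are not drawn as points, 2059 have a summit in that part of the list.

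All 5 substrate genes were called, against 15.8% of all genes. All 5 were also called in both replicates' thresholded lists, against 10.7%. The peak of cyb-2.2, a B-type cyclin gene, had a signal of 2368 (rank 24), with 654 in replicate 1 and 1723 in replicate 2. The related cyb-2.1 had 1208 (rank 115), cyb-3 723 (rank 277) and cyb-1 446 (rank 596), the last 442 bp upstream and nearer to the replication origin gene orc-5. The securin gene ify-1 had a signal of 719.5 (rank 283), 179 bp upstream, between ify-1 and the ribosomal protein gene rpl-22. The separase gene sep-1, whose product securin restrains, had a lower signal of 213 (rank 1495, 425 bp upstream) and was in replicate 2's thresholded list but not in replicate 1's. This summit was nearer to nefr-1 (131 bp), so sep-1 was not called when each summit was given to its nearest 5′ end alone. By that count 11 of the 18 genes were called (12.3% of all genes), without sep-1, cyb-1, emb-1 and cdk-1.

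Of the checkpoint genes, 4 of 5 were called, against 15.8% of all genes. The Bub3 gene bub-3 had the strongest peak (signal 1055, rank 144, 86 bp upstream), with 314 in replicate 1 and 734 in replicate 2. The kinase gene bub-1 followed with 600.2 (194 bp upstream) and the Mad2 gene mdf-2 with 441 (13 bp upstream, in the sequence shared with nduv-3). The Mad1 gene mdf-1 was weak, with a signal of 76.0 (rank 3953), in neither replicate's thresholded list and not in the less strict list. The Mad3 gene san-1 was not called, although replicate 2's own list held a summit 120 bp upstream with a signal of 68.4. The less strict list also held a san-1 summit, 109 bp upstream with a signal of 81.

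The kinase genes were both called, against 15.8% of all genes. The signal was 1043 at plk-1 (Polo-like kinase), 207 bp upstream, and 457 at cdk-1 (the mitotic cyclin-dependent kinase), 608 bp upstream in an intron of iff-1. The other subunits were mixed, with 3 of 5 called, against the same 15.8%. The Apc5 homologue such-1 had 2 conservative peaks, with signals of 828 (511 bp upstream, rank 221) and 391 (56 bp upstream, rank 706), both in an annotated exon of Y66D12A.16 on the other strand. Its paralogue gfi-3, on the X chromosome, was not called and had a strongest combined ranked signal of 43.5. The small subunit gene emb-1 had 449, at a summit 773 bp upstream and 54 bp from K10D2.5. The gene apc-17 had 128 (271 bp inside, in coding sequence), and cdc-26 was not called, with 60.9 in the combined ranked list. The less strict list did hold this cdc-26 summit, 30 bp inside. Replicate 2's thresholded list held one 34 bp upstream with a signal of 55.9.

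Every member can be compared on the ranked lists, by the share of all protein-coding genes whose strongest summit within 1000 bp was weaker. Genes without a summit counted as weaker. A summit was present at 51.4% of genes in the combined ranked list, 56.1% in replicate 1 and 54.2% in replicate 2. The places of mat-2, and that of apc-10 in replicate 1, thus belong to weaker summits among the genes that had any. In the combined ranked list fzy-1 stood at 96.0% and emb-27, emb-30, apc-2, fzr-1 and mat-1 between 85.0% and 88.1%. Below them came apc-11 at 80.8%, mat-3 at 72.2% and mat-2 at 57.5%, while apc-10 had no summit. The median of the 10 was 85.2%, with 84.2% in replicate 1 and 83.7% in replicate 2. The 5 substrates ran from 96.6% to 99.9%, all above the highest member in that list, and the checkpoint genes from 82.8% to 99.1%. In replicate 1 the members ran from 46.6% (mat-2) to 96.7% (fzy-1), and in replicate 2 from 48.3% (mat-2) to 95.8% (fzy-1). The places of apc-10 and mat-3 differed most between the replicates, at 48.7% and 64.8% for apc-10 and at 78.8% and 65.2% for mat-3. Of the 5 genes from 85.0% to 88.1%, mat-1 was the lowest in replicate 1 (82.7%) and next to emb-27 in replicate 2 (85.4%). The place of fzr-1 was 85.7% in replicate 1 and 75.1% in replicate 2. Some of these values came from summits other than the called peak: 770 bp inside mat-1 in replicate 1, and 725 bp inside fzr-1 in replicate 2. The order of these neighbours is therefore not resolved.

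**Figure D4:**
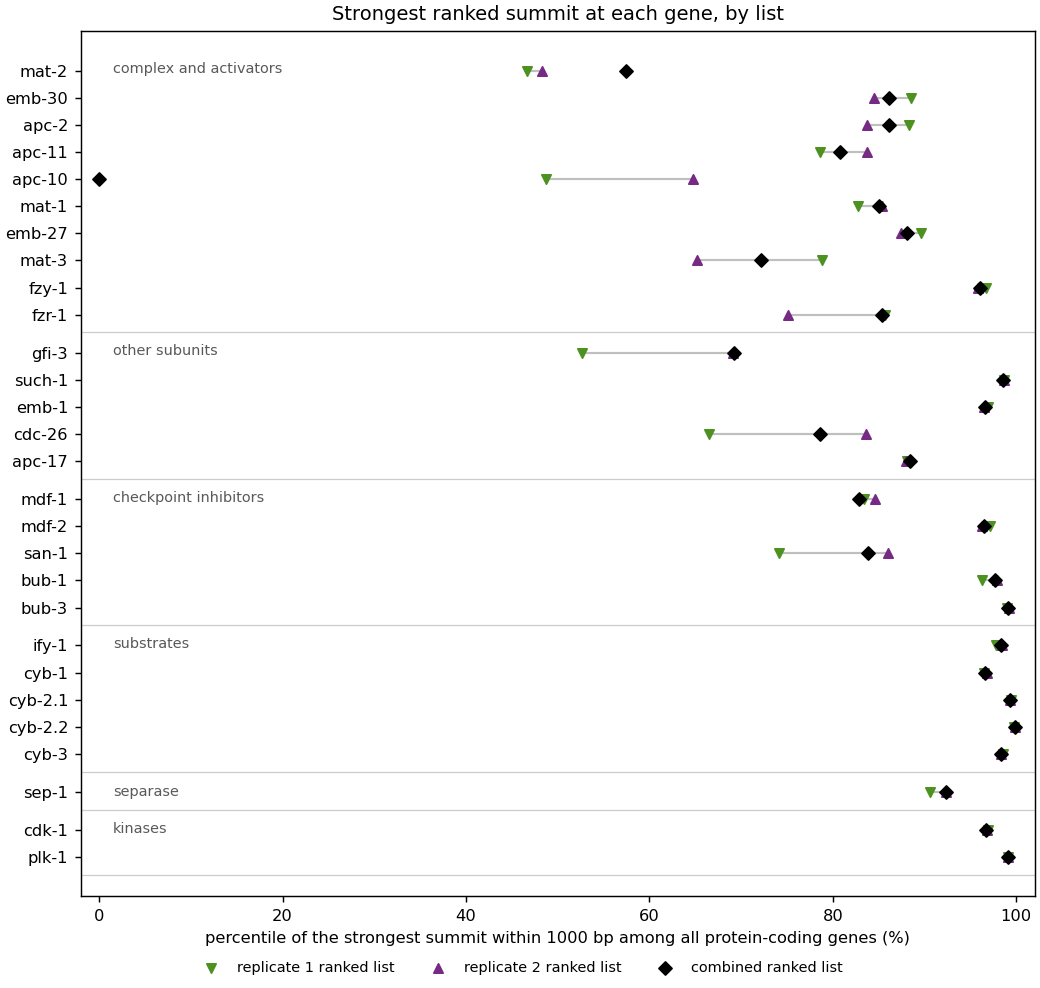
Percentile of the strongest summit within 1000 bp of each gene (horizontal axis, % of all protein-coding genes with a weaker one or none) in replicate 1 (down triangles), replicate 2 (up triangles) and the combined ranked list (diamonds). Rows are genes grouped by role. The gene apc-10 is at 0 in the combined list, where it had no summit, fzy-1 is near 96 in each list, and the 5 substrates lie above 96 in each.

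Where both replicates called a member, their summits were close. They were 11 bp apart at emb-27, 14 bp at fzy-1 and 25 bp at emb-30, where the median over the 2145 genes called in both was 12 bp (quartiles 5 and 26 bp). Among the compared genes the distances were 2 bp at bub-3, 5 bp at cyb-2.2 and 14 bp at ify-1.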

How the data were processed

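ChIP-seq peak lists of 2 biological replicates were used, 8 in all, on ce11 per the deposited text beside the lists. That text names 1 control library for both replicates. Which aligner and caller were used, and how, is not given in the sources used here. For each peak, the score, a scaled irreproducible discovery rate, and its signal are values the authors deposited. The signal is comparable only within a list. Summits are the deposited offsets from the peak start, given here as 1-based positions. Unnamed columns of the combined ranked lists were not used. Of the 2 combined ranked lists, the one of 63808 peaks was used, because it held all 4384 conservative peaks. The other, of 65766 peaks, held 3960 of them, and no result here is taken from it.

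Summits were matched to the 5′ ends of Ensembl release 115 genes within 1000 bp with Python 3.11.15, pandas 2.3.3 and numpy 2.4.6, and for a gene with several summits the strongest was taken. Because of trans-splicing, transcription can begin upstream of an annotated 5′ end. The rule for matching was tested on simulated data. The members and lists were chosen with earlier results of these data known, so shares of all genes stand beside the counts and no p-value is given. The text names all members, the called genes of the compared lists and the nearest other gene at each member's summit, while uncalled genes of those lists and the neighbours of compared genes were named after their values were seen. Sequence words were searched 50 bp to each side of a summit on both strands.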

Additional observations from a re-analysis of the deposited data

How the results depend on the processing

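The 6 called members stayed within 1.5 times that number under every alternative tried but a pair. With the 2192 peaks of highest signal 1 was called, fzy-1, and leaving out replicate 2 gave 3. Leaving out replicate 1 gave 4, which is within that limit. For the 18 compared genes, 15 were called, and the alternatives gave 10 to 17, with 12 and 16 when a replicate was left out. The share of all genes was 10.3% with the 2192 strongest peaks, 11.4% without replicate 2 and 16.5% without replicate 1, against 15.8% in the conservative list, and 8.14% within 250 bp, where the compared genes had their lowest count. The cause was not tested. The start of the same-strand run and the word GAGACC were chosen after seeing the data. Taking the nearest summit in place of the strongest was compared in the conservative list only. There it could change the signal only at such-1 (828 or 391). No other called member or compared gene had more than 1 conservative summit in the window. With 100 bp to each side of the summit, TTTGAA was in 3 of the 6 member windows (40.8% of all conservative windows) and GAGAGA in 2 (18.4%). Read depth is unknown, 2 replicates allow no test of a single gene, and weak peaks such as those at apc-2, mat-1 and fzr-1 stand near the score threshold in at least 1 list. No paired analysis was possible because there is only 1 group.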
